A study of Mus musculus with 36 samples.

Results

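The genes described here are 10 members of the bone morphogenetic protein (BMP) pathway: the ligands Bmp2, Bmp4, Bmp5 and Bmp7, the secreted antagonist Chrd, and the target genes Id1, Id2, Id3, Msx1 and Msx2. They were chosen by name, with earlier results of these data known, so counts of members called describe the list and do not test it. Each was found as 1 entry among the 37561 gene entries of each of the 6 deposited tables. RNA was sequenced from LncCPR-KO cells and from control cells, both of the mouse embryonic stem cell line AB2.2, at days 0, 3, 5, 8, 10 and 12 of differentiation, with 3 libraries for each of the 12 groups. LncCPR is a long noncoding RNA, and its gene had been cut out with Cas9 and a pair of guides on either side of it, after which single sorted cells were grown into lines. The number of lines behind the 18 LncCPR-KO libraries is not stated, so the deletion and the choice of line cannot be told apart, and nothing states that the 3 libraries of a group came from separate cultures, so the p-values measure the spread between these libraries. Both lines were kept in serum with leukemia inhibitory factor (LIF) at day 0. At the later days both were grown without LIF as embryoid bodies, aggregates formed in hanging drops that hold a mixture of early cell types. Whole embryoid bodies were lysed, so fewer cells of a type and less RNA per cell cannot be told apart. No entry carried the name LncCPR, so the deletion itself was not checked here.

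BMPs are secreted dimers that bind pairs of type I and type II serine/threonine kinase receptors. The receptors phosphorylate SMAD1, SMAD5 and SMAD9, which enter the nucleus with SMAD4 and switch on targets such as the Id genes, whose products block basic helix-loop-helix transcription factors, and the Msx homeobox genes. Chordin, the product of Chrd, binds BMPs outside the cell and keeps them from their receptors. In the mouse embryo BMP4 is needed for mesoderm to form, and BMP signals take part in the making of heart muscle and in keeping stem cells undifferentiated in culture.

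Values are FPKM (by definition, fragments scaled by transcript length and by the library's total of mapped fragments), so levels of different genes can be set beside each other per length. Whether the libraries were also scaled to each other is not stated. A fold change is the log2 of LncCPR-KO over control on FPKM + 1, which understates the change of low genes, and SE is its standard error. A value after ± is the SD over the 3 libraries of a group. Adjusted p-values come from limma with Benjamini-Hochberg adjustment over all genes of a day with a mean of 1 FPKM or more, are two-sided, and are called below 0.05. A gene is said to be higher or lower without overlap when all 3 LncCPR-KO libraries lie on 1 side of all 3 control libraries.

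Library sums ran from 294740 to 403675 FPKM, and the 10 most abundant genes held 11.3% to 30.3% of that sum, over 20% in 8 libraries. As estimated from the smallest steps of low genes, the deepest library had 3.25 times the depth of the shallowest, while the number of reads in either is unknown. The 2 libraries are of days 5 and 8, so the ratio would also hold any difference in scaling between the tables. Over all genes tested the median fold change reached 0.15, 0.13 and 0.17 at days 3, 5 and 10, and stayed within 0.1 of 0 on the other days. Rescaling the libraries of a day to a common median ratio removed this shift and moved the share of calls that were higher in LncCPR-KO to 39.2%, against 61.9% as deposited, at day 3. At day 5 that share was 42.8% rescaled and 68.1% as deposited, at day 10 it was 45.5% and 74.6%, and at day 12 it was 34.9% and 48.1%. The 6 pluripotency genes checked against the labelled cells summed to 1422 to 1544 FPKM in LncCPR-KO and 1386 to 1430 FPKM in control libraries at day 0, with Esrrb listed at 0 in all 6 libraries of that day, although it averaged 13.6 FPKM in LncCPR-KO and 12.1 FPKM in control embryoid bodies at day 3. Of 4 fibroblast and feeder cell genes, Col1a1, Col1a2 and Postn were under 1 FPKM at day 0. The fourth, Thy1, averaged 2.81 ± 0.395 FPKM in LncCPR-KO and 2.97 ± 0.659 FPKM in control cells (limma adjusted p = 0.854).

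The promoters of the 5 members that were called at day 5 (Bmp4, Bmp5, Chrd, Msx1 and Msx2) and of Id2, called at days 0 and 8, are shown so that the starts of genes that moved in 1 direction can be read beside that of Chrd, which moved in the other. Each runs 5′ to 3′ on the gene's strand, from 250 bases before to 50 bases after the transcription start in RefSeq annotation of GRCm38.p6. They are Bmp4 at chr14:46390620-46390919 (minus strand), Bmp5 at chr9:75775115-75775414 (plus), Chrd at chr16:20732877-20733176 (plus), Id2 at chr12:25096043-25096342 (minus), Msx1 at chr5:37824536-37824835 (minus) and Msx2 at chr13:53472731-53473030 (minus). Capitals mark GGCGCC, a GC-rich element bound by SMAD1 and SMAD5, and GTCT or its complement AGAC, the SMAD box.
Bmp4: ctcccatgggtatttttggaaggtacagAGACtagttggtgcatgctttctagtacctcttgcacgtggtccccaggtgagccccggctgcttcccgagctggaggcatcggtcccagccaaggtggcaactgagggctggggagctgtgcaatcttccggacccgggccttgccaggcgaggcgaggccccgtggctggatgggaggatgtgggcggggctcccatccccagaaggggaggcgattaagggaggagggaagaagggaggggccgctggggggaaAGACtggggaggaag
Bmp5: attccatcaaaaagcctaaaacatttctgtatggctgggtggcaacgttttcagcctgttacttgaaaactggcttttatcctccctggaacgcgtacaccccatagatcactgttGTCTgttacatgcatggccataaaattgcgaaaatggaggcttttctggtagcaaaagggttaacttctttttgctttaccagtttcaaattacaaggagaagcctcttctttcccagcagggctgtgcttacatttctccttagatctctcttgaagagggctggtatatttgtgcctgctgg
Msx1: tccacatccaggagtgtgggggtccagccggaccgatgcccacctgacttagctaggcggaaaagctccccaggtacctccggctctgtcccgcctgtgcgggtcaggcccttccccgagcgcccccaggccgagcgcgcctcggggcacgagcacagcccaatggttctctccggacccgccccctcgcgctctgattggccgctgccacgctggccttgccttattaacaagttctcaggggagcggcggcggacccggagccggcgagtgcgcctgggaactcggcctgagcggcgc
Msx2: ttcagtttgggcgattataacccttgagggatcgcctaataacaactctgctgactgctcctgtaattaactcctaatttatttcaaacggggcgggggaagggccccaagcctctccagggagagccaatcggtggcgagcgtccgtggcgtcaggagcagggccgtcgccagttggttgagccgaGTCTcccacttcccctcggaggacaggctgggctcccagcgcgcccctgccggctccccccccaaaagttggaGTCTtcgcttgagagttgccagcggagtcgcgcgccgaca
Id2: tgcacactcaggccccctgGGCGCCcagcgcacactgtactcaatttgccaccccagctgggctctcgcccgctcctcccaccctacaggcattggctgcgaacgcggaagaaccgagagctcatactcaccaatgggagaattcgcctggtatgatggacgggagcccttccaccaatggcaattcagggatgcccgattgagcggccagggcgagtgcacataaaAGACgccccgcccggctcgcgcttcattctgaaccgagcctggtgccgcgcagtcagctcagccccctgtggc
Chrd: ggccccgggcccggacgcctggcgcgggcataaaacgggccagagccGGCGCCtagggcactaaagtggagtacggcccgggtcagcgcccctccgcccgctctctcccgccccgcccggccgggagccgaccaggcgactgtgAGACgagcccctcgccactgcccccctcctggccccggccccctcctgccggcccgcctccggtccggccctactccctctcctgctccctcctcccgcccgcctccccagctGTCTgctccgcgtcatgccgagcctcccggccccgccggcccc
GGCGCC was present in the windows of Chrd and Id2, once each, and was absent from those of Bmp4, Bmp5, Msx1 and Msx2. GTCT or AGAC was present in 2 copies in the windows of Bmp4, Chrd and Msx2 and in 1 copy in those of Bmp5 and Id2, and it was absent from that of Msx1. Among 32544 mouse promoters of the same length, 11.9% held GGCGCC, 88.0% held GTCT or AGAC, and 9.57% held both, as Chrd and Id2 did. The E box CANNTG, the letters bound by the helix-loop-helix factors that Id proteins block, was present in 72.3% of the promoters. It occurred 3 times in that of Bmp4, once each in those of Chrd, Id2, Msx1 and Msx2, and not in that of Bmp5. GC content was 78.3% for Chrd, 70% for Msx1, 64% for Bmp4, 63.3% for Id2, 61% for Msx2 and 43.3% for Bmp5. These matches describe letters in a window and are neither binding sites nor causes. The genes of the other members lie on GRCm38 at chr2:133552159-133562885 on the plus strand (Bmp2), chr2:172868012-172940321 on the minus strand (Bmp7), chr2:152736251-152737410 on the plus strand (Id1) and chr4:136143497-136145755 on the plus strand (Id3).

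**Figure D1:**
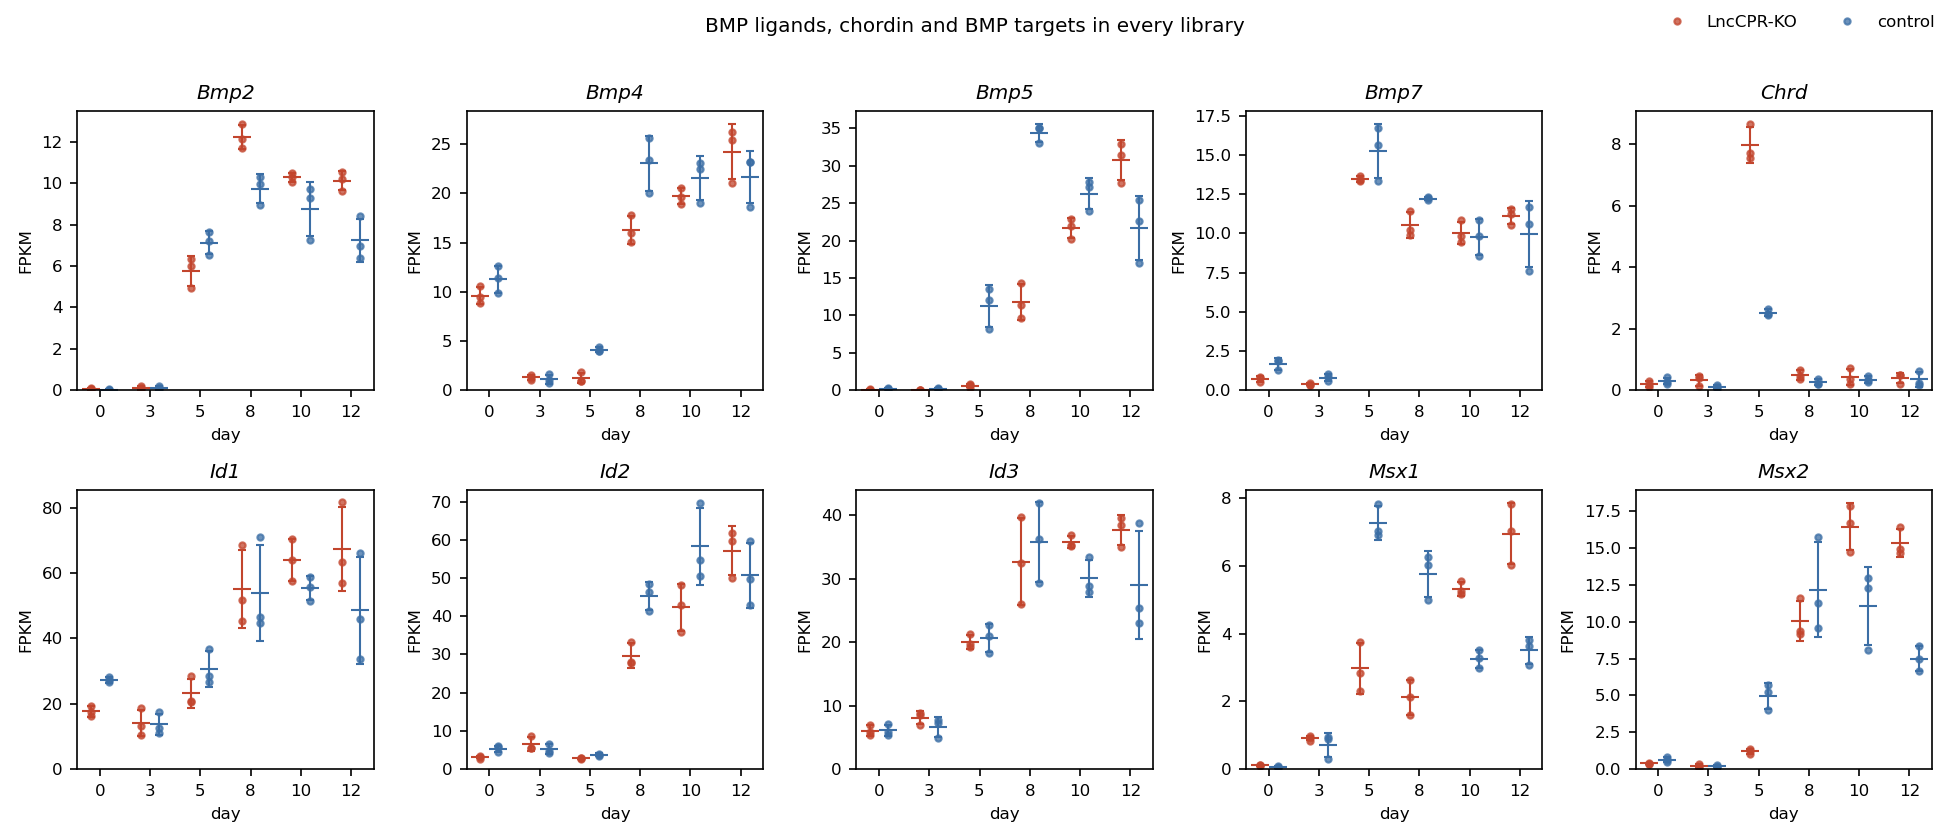
FPKM of each of the 10 genes by library, on linear axes that start at 0 and differ between genes, at the 6 days, with LncCPR-KO libraries left of control libraries and bars for the mean ± SD of 3. At day 5 the LncCPR-KO points of Bmp4, Bmp5, Msx1 and Msx2 lie below all control points and those of Chrd lie above them, and at day 12 the LncCPR-KO points of Msx1 and Msx2 lie above all control points.

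Counted over the 10 genes, calls were lower in LncCPR-KO at days 0 and 8, and all but that of Chrd were lower at day 5. At day 0, 5 of the 10 were tested and 3 (Id1, Id2 and Bmp7) were lower and 0 higher, where 14.5% of all genes tested were called, 8.03% as lower and 6.49% as higher. Of those tested these 3 were also the ones without overlap, where 19.7% of all genes were lower and 16.8% higher without overlap. At day 3, 4 were tested and 0 were called by limma, with 0 at an unadjusted p below 0.05, where 1.75% of all genes were called (0.668% lower, 1.09% higher), and 0 of these 4 were without overlap (3.02% of all genes lower, 14.5% higher). At day 5 each of the 10 was tested and 4 (Bmp4, Bmp5, Msx1 and Msx2) were lower and Chrd higher, where 10.4% of all genes were called, 3.32% as lower and 7.07% as higher. Without overlap 6 were lower and 1 higher, against 7.83% and 26.1% of all genes. At day 8, 9 were tested and 3 (Bmp5, Id2 and Msx1) were lower and 0 higher, where 3.28% of all genes were called, 2.00% as lower and 1.28% as higher. Without overlap 5 were lower and 1 higher, against 8.48% and 14.2% of all genes.

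At day 10, 9 were tested and 2 (Msx1 and Msx2) were higher and 0 lower, where 20.2% of all genes were called, 15.0% as higher and 5.12% as lower, so the share of members called was near that of all genes. Without overlap 4 were higher and 2 lower, against 30.9% and 9.47% of all genes. That count turned on scaling: with the libraries rescaled 3 members (Bmp4, Bmp5 and Id2) were lower and 1 (Msx1) was higher. At day 12, 9 were tested and 2 (Msx1 and Msx2) were higher and 0 lower, where 6.71% of all genes were called, 3.22% as higher and 3.48% as lower. Without overlap 4 were higher and 0 lower, against 18.2% and 11.8% of all genes. The members not tested on a day had a mean under 1 FPKM over its 6 libraries. The median fold change of the members tested was -0.61, 0.20, -0.34, -0.24, 0.20 and 0.44 on the 6 days in turn, beside medians over all genes of -0.01, 0.15, 0.13, 0.09, 0.17 and 0.05.

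Of the 10 genes the ligand Bmp5 had the largest fold change at days 5 and 8. Bmp5 encodes a ligand of the same subgroup as Bmp7 and, in the mouse embryo, acts together with Bmp7 in heart development. At day 5 Bmp5 had 0.346, 0.658 and 0.786 FPKM in LncCPR-KO libraries, against 8.21, 12.0 and 13.6 FPKM in control libraries. Every LncCPR-KO library was below 1 FPKM when every control library was above 8, and the LncCPR-KO mean was 0.0529 times the control mean (log2 fold change -2.93, SE 0.18, limma adjusted p = 4.2e-06). At day 8 Bmp5 was still lower, with 11.4, 9.65 and 14.3 FPKM in LncCPR-KO libraries and 33.1, 35.0 and 35.1 FPKM in control libraries (-1.48, SE 0.15, adjusted p = 0.000567). Both calls held with each library left out in turn. At day 10 Bmp5 averaged 21.7 ± 1.32 FPKM in LncCPR-KO and 26.3 ± 2.09 FPKM in control embryoid bodies, without overlap, and the fold change of -0.27 was not called (adjusted p = 0.163). With the libraries of day 10 rescaled it was -0.45 and was called (adjusted p = 0.00653). At day 12 the order of the lines was the other way round, with 33.0, 31.5 and 27.7 FPKM in LncCPR-KO libraries and 22.6, 17.0 and 25.4 FPKM in control libraries, again without overlap and short of the threshold (0.50, SE 0.15, adjusted p = 0.0776). In the LncCPR-KO line the Bmp5 level was thus highest at day 12 and stepped down through days 10, 8 and 5, with no overlap between neighbouring days. In the control line the level was highest at day 8, and days 10 and 12 overlapped. At days 0 and 3 Bmp5 was below the filter, with means of 0.0589 and 0.0134 FPKM in LncCPR-KO and 0.18 and 0.175 FPKM in control libraries, and was not tested. These orders across days are descriptions, since the tables of the days may have been scaled apart.

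Bmp4 encodes the ligand that induces mesoderm in the mouse embryo, and was also lower at day 5. It had 1.80, 0.927 and 0.981 FPKM in LncCPR-KO libraries, against 3.97, 3.97 and 4.41 FPKM in control libraries (log2 fold change -1.21, SE 0.16, limma adjusted p = 0.000888). The groups did not overlap, and the call held with each library left out. Bmp4 differed in its course from the other ligands. It was the only 1 of the 4 above 5 FPKM in undifferentiated cells, with 9.62 ± 0.878 FPKM in LncCPR-KO and 11.3 ± 1.38 FPKM in control cells at day 0 (adjusted p = 0.235). At day 3 it was near 1 FPKM in both lines, at 1.30 ± 0.269 FPKM in LncCPR-KO and 1.13 ± 0.461 FPKM in control embryoid bodies (adjusted p = 0.864). In the control line the day 5 level lay above the day 3 level without overlap, whereas in the LncCPR-KO line the 2 days overlapped. At day 8 Bmp4 had 15.9, 17.8 and 15.0 FPKM in LncCPR-KO libraries and 25.6, 23.4 and 20.1 FPKM in control libraries, without overlap and not called (-0.47, adjusted p = 0.112). Rescaling made Bmp4 called as lower at day 8 (-0.58, adjusted p = 0.0110) and at day 10 (-0.30, adjusted p = 0.0206), where the deposited values gave -0.12 (adjusted p = 0.559). At day 12 Bmp4 averaged 24.2 ± 2.80 FPKM in LncCPR-KO and 21.6 ± 2.64 FPKM in control embryoid bodies (0.16, adjusted p = 0.501). The exons of Bmp4 overlap those of Gm15217 on the other strand, and Gm15217 reached at most 1.90 FPKM in the 36 libraries. Whether fragments were assigned by strand is not stated.

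Bmp7, a ligand whose product can pair with BMP2 or BMP4, was called in undifferentiated cells and at no later day. At day 0 it had 0.510, 0.822 and 0.802 FPKM in LncCPR-KO libraries and 1.86, 1.93 and 1.26 FPKM in control libraries (log2 fold change -0.64, SE 0.15, limma adjusted p = 0.0312). The groups did not overlap, but the call held only with control replicate 3 left out and was lost without any 1 of the other 5 libraries, with adjusted p up to 0.0972. At day 3 it was below the filter, at 0.389 ± 0.0858 FPKM in LncCPR-KO and 0.805 ± 0.210 FPKM in control embryoid bodies, without overlap. At day 5, when it was at its highest level in both lines, it had 13.4, 13.7 and 13.4 FPKM in LncCPR-KO libraries and 13.4, 15.6 and 16.7 FPKM in control libraries. That difference was not called (-0.16, adjusted p = 0.381), though it was with the libraries rescaled (-0.29, adjusted p = 0.0316). From day 8 onward Bmp7 means lay between 10.0 and 11.1 FPKM in LncCPR-KO and between 9.74 and 12.2 FPKM in control embryoid bodies, with no call. Bmp2, a close relative of Bmp4, was called at no day. Its level was under 0.12 FPKM in the mean of both lines at days 0 and 3. At day 5 Bmp2 was lower without overlap, with 4.94, 6.36 and 6.00 FPKM in LncCPR-KO libraries and 6.53, 7.63 and 7.20 FPKM in control libraries (-0.27, adjusted p = 0.193). It was higher without overlap at day 8, at 12.2 ± 0.572 FPKM in LncCPR-KO and 9.75 ± 0.721 FPKM in control embryoid bodies (0.30, adjusted p = 0.274). The same held at day 10, at 10.3 ± 0.218 FPKM in LncCPR-KO and 8.75 ± 1.32 FPKM in control embryoid bodies (0.22, adjusted p = 0.295), and at day 12, at 10.1 ± 0.457 FPKM in LncCPR-KO and 7.25 ± 1.04 FPKM in control embryoid bodies (0.44, adjusted p = 0.0777). None of these differences of Bmp2 passed the threshold.

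The 4 ligands together gave 21.1 ± 0.568 FPKM in LncCPR-KO and 37.8 ± 5.09 FPKM in control embryoid bodies at day 5. At day 8 the sum was 50.8 ± 0.348 FPKM in LncCPR-KO and 79.4 ± 2.64 FPKM in control embryoid bodies. The libraries of the lines did not overlap at either day. At day 12 the sum was 76.2 ± 5.80 FPKM in LncCPR-KO and 60.6 ± 9.45 FPKM in control embryoid bodies, again without overlap. These sums are given as descriptions, without a test. The make-up of the sum also differed at day 5, when Bmp5 held 2.83% and Bmp7 63.9% of it in LncCPR-KO embryoid bodies, against 29.9% for Bmp5 and 40.4% for Bmp7 in control embryoid bodies. At day 0 Bmp4 held most of the sum in both lines, 92.1% in LncCPR-KO and 85.6% in control cells. By day 12 the shares were close, with Bmp5 at 40.3% and Bmp4 at 31.8% in LncCPR-KO, against 35.8% and 35.7% in control embryoid bodies.

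Chrd, the antagonist, was the only 1 of the 10 genes that was higher at day 5. It had 7.56, 8.65 and 7.74 FPKM in LncCPR-KO libraries, against 2.44, 2.48 and 2.64 FPKM in control libraries. The lowest LncCPR-KO library was far above the highest control library, and the LncCPR-KO mean was 3.17 times the control mean (log2 fold change 1.35, SE 0.12, limma adjusted p = 3.75e-05). The call held with each library left out. Day 5 was the only day on which Chrd passed the filter. At the other days its means lay between 0.193 and 0.491 FPKM in LncCPR-KO and between 0.102 and 0.348 FPKM in control libraries, with overlap at each. The exons of Chrd overlap those of Thpo, the thrombopoietin gene, on the other strand. Thpo was higher at day 5 too, at 2.93 ± 0.469 FPKM in LncCPR-KO and 1.29 ± 0.399 FPKM in control embryoid bodies (log2 fold change 0.79, limma adjusted p = 0.0120). Its call was lost without control replicate 1 (adjusted p = 0.0601). Reads of the overlapping genes cannot be told apart if strand was not used.

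The homeobox targets Msx1 and Msx2 were lower at day 5 and higher at days 10 and 12. Their products are transcriptional repressors that BMP signals switch on in many embryonic tissues. At day 5 Msx1 had 2.30, 2.84 and 3.77 FPKM in LncCPR-KO libraries, against 7.04, 7.84 and 6.91 FPKM in control libraries (log2 fold change -1.07, SE 0.15, limma adjusted p = 0.00106). Msx2 had 1.01, 1.22 and 1.36 FPKM in LncCPR-KO libraries and 4.0, 5.72 and 5.24 FPKM in control libraries on that day (-1.44, SE 0.15, adjusted p = 0.000151). Neither gene's groups overlapped, and both calls held with each library left out. At day 8 the genes parted. Msx1 was lower, with 2.14, 1.58 and 2.63 FPKM in LncCPR-KO libraries and 6.03, 4.99 and 6.26 FPKM in control libraries (-1.13, SE 0.18, adjusted p = 0.00936). Msx2 overlapped, at 10.0 ± 1.37 FPKM in LncCPR-KO and 12.2 ± 3.22 FPKM in control embryoid bodies (-0.24, limma adjusted p = 0.557).

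At day 10 both Msx genes were on the other side. Msx1 had 5.18, 5.56 and 5.25 FPKM in LncCPR-KO libraries and 3.28, 3.52 and 2.99 FPKM in control libraries (log2 fold change 0.57, SE 0.15, limma adjusted p = 0.0182). Its call was lost without LncCPR-KO replicate 2 (adjusted p = 0.0683). Msx2 had 14.8, 17.9 and 16.7 FPKM in LncCPR-KO libraries and 13, 12.3 and 8.08 FPKM in control libraries (0.55, SE 0.17, adjusted p = 0.0377). The Msx2 call was lost with the libraries rescaled (0.37, adjusted p = 0.0684), without control replicate 3 (0.36, adjusted p = 0.0774), without LncCPR-KO replicate 2 (adjusted p = 0.109) and without LncCPR-KO replicate 3 (adjusted p = 0.0742). It was also lost with no filter on low values (adjusted p = 0.175) and without a variance trend in limma (adjusted p = 0.0525). At day 12 the difference was wider for both genes. Msx1 had 7.02, 7.81 and 6.03 FPKM in LncCPR-KO libraries and 3.64, 3.82 and 3.06 FPKM in control libraries (0.82, SE 0.15, adjusted p = 0.0140). The Msx1 call was lost without LncCPR-KO replicate 1 (adjusted p = 0.0553) and without LncCPR-KO replicate 2 (adjusted p = 0.0615). Msx2 had 14.9, 16.5 and 14.7 FPKM in LncCPR-KO libraries and 8.33, 7.51 and 6.66 FPKM in control libraries (0.95, SE 0.12, adjusted p = 0.00318), a call that held with each library left out. Msx1 was thus at its highest level at day 12 in LncCPR-KO and at day 5 in control embryoid bodies. Both genes were under 1 FPKM in the mean of either line at days 0 and 3 and were not tested there.

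**Figure D2:**
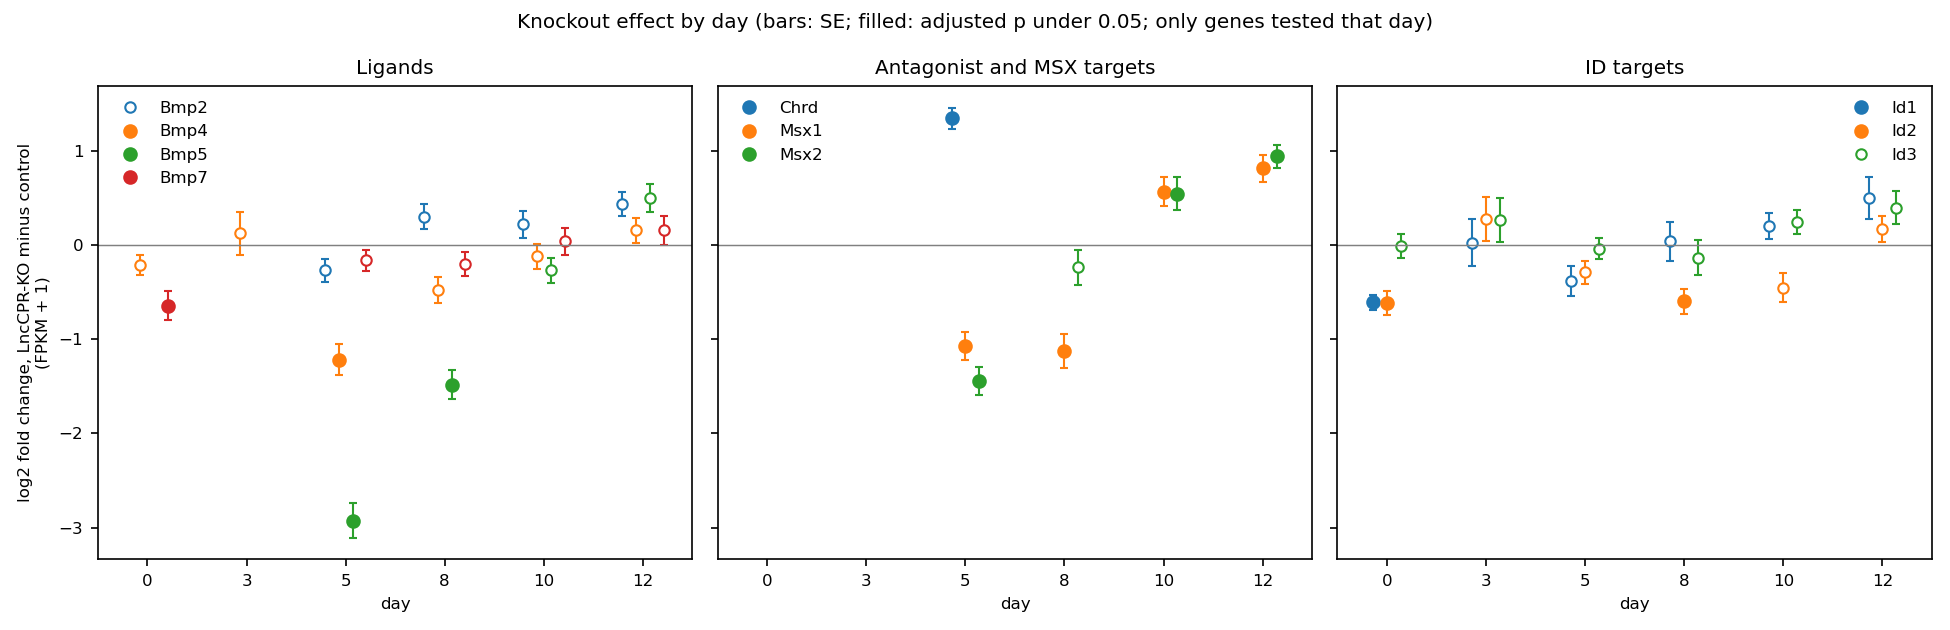
Log2 fold change of LncCPR-KO over control on FPKM + 1 at each day tested, in a panel each for the ligands, for Chrd with the Msx targets and for the Id targets, with bars of 1 SE and filled points where the adjusted p is below 0.05. Bmp5 runs between -2.93 at day 5 and 0.50 at day 12, Msx1 and Msx2 are below 0 at days 5 and 8 and above it at days 10 and 12, and Id3 stays within 0.40 of 0.

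Among the Id targets, Id1 and Id2 were lower in undifferentiated LncCPR-KO cells, and Id3 was called at no day. The Id proteins lack a DNA-binding domain and hold basic helix-loop-helix factors away from DNA, and Id1 and Id3 are among the BMP targets linked to self-renewal of mouse embryonic stem cells. At day 0 Id1 had 19.4, 17.3 and 16.1 FPKM in LncCPR-KO libraries, against 27.2, 28.1 and 26.5 FPKM in control libraries. The groups lay well apart (log2 fold change -0.61, SE 0.08, limma adjusted p = 0.0037), and the call held with each library left out. Id2 had 3.44, 3.13 and 2.76 FPKM in LncCPR-KO libraries and 5.93, 4.39 and 5.66 FPKM in control libraries (-0.62, SE 0.13, adjusted p = 0.0212). That call held only without control replicate 2 or without LncCPR-KO replicate 1, and adjusted p reached 0.0695 without control replicate 3. Id3 had 6.08 ± 0.816 FPKM in LncCPR-KO and 6.10 ± 0.873 FPKM in control cells at day 0 (limma adjusted p = 0.988), and its groups overlapped.

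From day 3 onward Id1 was not called. At day 5 it averaged 23.2 ± 4.44 FPKM in LncCPR-KO and 30.5 ± 5.49 FPKM in control embryoid bodies (log2 fold change -0.38, limma adjusted p = 0.146). At day 12 it averaged 67.3 ± 12.9 FPKM in LncCPR-KO and 48.6 ± 16.3 FPKM in control embryoid bodies (0.50, adjusted p = 0.207). The groups overlapped on both days. The libraries of a group were spread widely at day 8, between 45.3 and 68.5 FPKM in LncCPR-KO and between 44.6 and 70.9 FPKM in control embryoid bodies. Id2 had its lowest mean at day 5 in both lines, though in the LncCPR-KO line days 0 and 5 overlapped. At day 5 it had 2.76, 2.88 and 2.94 FPKM in LncCPR-KO libraries and 4.07, 3.35 and 3.74 FPKM in control libraries. It was lower there without overlap and not called (-0.29, adjusted p = 0.154). At day 8 Id2 was called as lower, with 27.7, 33.4 and 28.1 FPKM in LncCPR-KO libraries and 46.5, 48.4 and 41.3 FPKM in control libraries (-0.60, SE 0.13, adjusted p = 0.0424). The day 8 call held only without LncCPR-KO replicate 2 among the 6 ways of leaving out 1 library, with adjusted p between 0.0377 and 0.221. At day 10 Id2 had 48.1, 43.0 and 35.9 FPKM in LncCPR-KO libraries and 54.7, 69.7 and 50.5 FPKM in control libraries, lower without overlap (-0.45, adjusted p = 0.0584). It was called there with the libraries rescaled (-0.64, adjusted p = 0.0059). By day 12 the Id2 groups overlapped, at 57.2 ± 6.32 FPKM in LncCPR-KO and 50.7 ± 8.46 FPKM in control embryoid bodies (0.18, adjusted p = 0.473). Id3 had fold changes between -0.13 at day 8 and 0.40 at day 12, none of them called. Without control replicate 1 that of day 12 was 0.62 and was called (adjusted p = 0.0295). At day 10 Id3 was higher without overlap and not called (0.25, limma adjusted p = 0.191). It had 36.9, 35.1 and 35.3 FPKM in LncCPR-KO libraries and 28.8, 33.4 and 27.9 FPKM in control libraries on that day.

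Whether the difference between the lines changed between days was tested with a limma F test over all 36 libraries, in which 17.1% of 13022 genes were called. Of the 10 members 8 were called, which were Bmp5 (adjusted p = 4.09e-12), Msx1 (5.78e-09), Msx2 (4.4e-08), Chrd (2.4e-05), Bmp4 (7.51e-05), Id2 (0.00661), Bmp2 (0.0167) and Bmp7 (0.0178). Id1 (0.067) and Id3 (0.402) were not called. The calls of Bmp4, Bmp5, Chrd, Msx1 and Msx2 held when the 6 libraries of any 1 replicate number of a line were left out, but that of Chrd was lost with a pseudocount of 0.1 in place of 1 (adjusted p = 0.108). That of Bmp2 was also lost with that pseudocount (adjusted p = 0.474). With libraries left out, that of Bmp2 held only without control replicate 1, that of Bmp7 only without control replicate 1 or 3, and that of Id2 was lost without control replicate 1, without control replicate 2 or without LncCPR-KO replicate 3. Without these libraries adjusted p reached 0.191 for Bmp2, 0.206 for Bmp7 and 0.0618 for Id2. Id1 was called without control replicate 1 (adjusted p = 0.0143) and with all libraries rescaled (adjusted p = 0.0457).

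Markers of cell types also differed between the lines, not always in the direction of the BMP genes. At day 5, 5 cardiac mesoderm genes (Mesp1, Kdr, Pdgfra, Gata4 and Tbx5) summed to 8.47 to 9.82 FPKM in LncCPR-KO and 64.4 to 76.4 FPKM in control libraries, and all 4 that were tested were lower, with Tbx5 under 1 FPKM. The 4 primitive streak genes summed to 223 to 238 FPKM in LncCPR-KO and 128 to 182 FPKM in control libraries, 2 of 4 being higher. The pluripotency genes summed to 476 to 527 FPKM in LncCPR-KO and 237 to 292 FPKM in control libraries, with 2 of 5 tested higher. At day 8 the cardiac mesoderm sum was 31.8 to 35.4 FPKM in LncCPR-KO and 63.9 to 71.4 FPKM in control libraries (4 of 4 tested lower). The 5 cardiomyocyte genes summed to 113 to 151 FPKM in LncCPR-KO and 711 to 896 FPKM in control libraries on that day (4 of 5 lower). The 3 blood genes summed to 1.16 to 1.67 FPKM in LncCPR-KO and 27.4 to 32.4 FPKM in control libraries (2 of 2 tested lower, Gata1 being under 1 FPKM), and the 3 endothelial genes to 20.3 to 24.7 FPKM in LncCPR-KO and 39.1 to 44.0 FPKM in control libraries (2 of 3 lower). At day 10 the cardiomyocyte sum was 145 to 253 FPKM in LncCPR-KO and 763 to 791 FPKM in control libraries (5 of 5 lower), and the pluripotency sum was 121 to 143 FPKM in LncCPR-KO and 43.2 to 68.7 FPKM in control libraries (5 of 6 higher). The 5 visceral endoderm genes summed to 185 to 234 FPKM in LncCPR-KO and 413 to 690 FPKM in control libraries on that day (3 of 5 lower, which were Afp, Ttr and Apoa1). Foxa2 and Sox17 were higher without overlap on that day and not called. Foxa2 averaged 14.6 ± 0.746 FPKM in LncCPR-KO and 11.5 ± 1.25 FPKM in control embryoid bodies, and Sox17 5.99 ± 0.268 FPKM and 4.88 ± 0.997 FPKM. At day 5, 2 of these 5 genes were higher (Ttr and Foxa2) and 1 was lower (Sox17). The fibroblast genes summed to 95.1 to 156 FPKM in LncCPR-KO and 188 to 294 FPKM in control libraries at day 10 (3 of 3 tested lower). At day 12, when Msx1 and Msx2 were higher, the cardiomyocyte sum was 211 to 248 FPKM in LncCPR-KO and 588 to 642 FPKM in control libraries (5 of 5 lower). Of the chondro-osteogenic genes Col2a1 was higher, at 17.7 ± 1.13 FPKM in LncCPR-KO and 8.14 ± 1.09 FPKM in control embryoid bodies, while Sox9 was at 3.69 ± 0.284 FPKM in LncCPR-KO and 4.56 ± 0.458 FPKM in control embryoid bodies, without overlap, and was not called (adjusted p = 0.329), and Runx2 was under 1 FPKM. The 3 summed to 21.1 to 22.4 FPKM in LncCPR-KO and 12.2 to 14.3 FPKM in control libraries, and the fibroblast sum was 216 to 255 FPKM in LncCPR-KO and 341 to 389 FPKM in control libraries (3 of 4 lower). At day 10, when Msx1 and Msx2 were also called higher, the chondro-osteogenic sums of the lines overlapped. They were 21.4 to 25.0 FPKM in LncCPR-KO and 21.8 to 24.3 FPKM in control libraries, with 1 of 2 tested genes lower and 0 higher. At day 0, when Id1 was lower, 3 of 3 neural genes measured were lower. They summed to 12.1 to 12.7 FPKM in LncCPR-KO and 19.4 to 20.7 FPKM in control libraries. At day 5 the neural sum was 33.3 to 40.9 FPKM in LncCPR-KO and 13.8 to 15.2 FPKM in control libraries. Nes, the only 1 of them tested on that day, was higher. At day 8, 1 of 3 neural genes was higher, and 0 were called at days 3, 10 and 12. The smooth muscle sum at day 5 was 14.01 to 16.7 FPKM in LncCPR-KO and 7.13 to 7.95 FPKM in control libraries (2 of 2 tested higher). At day 10, 1 of 2 tested smooth muscle genes was lower. The part of these cell types in the values of the BMP genes was not tested.

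Another 50 genes of the BMP pathway were listed by role, and none overlaps with the 10. Of these, 18 were tested at day 0 and 1 was lower, where 14.5% of all genes were called (Smad5, at 13.7 ± 0.749 FPKM in LncCPR-KO and 17.4 ± 1.18 FPKM in control cells, a call lost with any library left out, adjusted p up to 0.101). At day 3, 0 of 16 were called by limma, with 1 at an unadjusted p below 0.05, where 1.75% of all genes were called. At day 5, 2 of 22 were higher and 6 lower, where 7.07% of all genes were higher and 3.32% lower. At day 8, 1 of 32 was higher and 4 were lower, where 1.28% of all genes were higher and 2.00% lower. At day 10, 4 of 32 were higher and 6 lower, where 15.0% of all genes were higher and 5.12% lower. At day 12, 1 of 35 was higher and 1 lower, where 3.22% of all genes were higher and 3.48% lower. With the libraries rescaled the list had 2 higher and 7 lower at day 5, 1 and 7 at day 8, 2 and 10 at day 10, and 1 and 4 at day 12. The median fold change over the genes tested was -0.10 at day 5, -0.20 at day 8 and -0.03 at day 10, beside 0.13, 0.09 and 0.17 over all genes.

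Among receptors, Bmpr2, the type II receptor, was lower at 3 days. At day 5 it averaged 8.23 ± 0.830 FPKM in LncCPR-KO and 13.4 ± 1.24 FPKM in control embryoid bodies (log2 fold change -0.64, limma adjusted p = 0.00692). At day 10 it averaged 25.3 ± 0.423 FPKM in LncCPR-KO and 42.2 ± 3.67 FPKM in control embryoid bodies (-0.71, adjusted p = 0.00281). At day 12 it averaged 28.9 ± 1.40 FPKM in LncCPR-KO and 41.6 ± 0.932 FPKM in control embryoid bodies (-0.51, adjusted p = 0.0147). The groups overlapped at none of these days. The day 12 call was lost without LncCPR-KO replicate 2 (adjusted p = 0.0562) or 3 (adjusted p = 0.0518). Acvrl1, a type I receptor best known from endothelium, was lower at day 10, at 2.78 ± 0.373 FPKM in LncCPR-KO and 5.70 ± 1.41 FPKM in control embryoid bodies (-0.81, limma adjusted p = 0.00800). The 3 endothelial markers were also all lower on that day, summing to 15.9 to 18.9 FPKM in LncCPR-KO and 21.5 to 35.5 FPKM in control libraries. Among transducers, Smad1 was lower at day 5, at 16.5 ± 1.47 FPKM in LncCPR-KO and 27.5 ± 3.35 FPKM in control embryoid bodies (-0.70, limma adjusted p = 0.00492). Smad9 was lower at day 10, at 1.83 ± 0.523 FPKM in LncCPR-KO and 3.33 ± 0.479 FPKM in control embryoid bodies (-0.62, adjusted p = 0.0318). The Smad9 call held only without control replicate 1 or without LncCPR-KO replicate 1, with adjusted p up to 0.116.

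The feedback inhibitors Smad6, an inhibitory SMAD, and Bambi, a receptor-like protein without kinase activity, are themselves induced by BMP signals. Both were lower at days 5, 8 and 10. At day 5 Smad6 averaged 2.80 ± 0.549 FPKM in LncCPR-KO and 5.5 ± 0.646 FPKM in control embryoid bodies (log2 fold change -0.78, limma adjusted p = 0.00662). At day 8 it averaged 9.37 ± 2.22 FPKM in LncCPR-KO and 20.9 ± 5.37 FPKM in control embryoid bodies (-1.08, adjusted p = 0.0235), and at day 10 15.5 ± 2.16 FPKM in LncCPR-KO and 23 ± 3.29 FPKM in control embryoid bodies (-0.54, adjusted p = 0.0255). The day 8 call of Smad6 was lost without control replicate 1 (adjusted p = 0.0829) or LncCPR-KO replicate 1 (adjusted p = 0.0773), and that of day 10 held only without control replicate 3 or LncCPR-KO replicate 2, with adjusted p up to 0.101. At day 5 Bambi averaged 1.11 ± 0.239 FPKM in LncCPR-KO and 2.26 ± 0.169 FPKM in control embryoid bodies (-0.63, adjusted p = 0.0184). At day 8 it averaged 2.89 ± 0.497 FPKM in LncCPR-KO and 7.59 ± 0.967 FPKM in control embryoid bodies (-1.15, adjusted p = 0.0055), and at day 10 5.12 ± 0.743 FPKM in LncCPR-KO and 9.43 ± 1.68 FPKM in control embryoid bodies (-0.76, adjusted p = 0.00738). The day 5 call of Bambi was lost without control replicate 2 or 3 or without LncCPR-KO replicate 1, with adjusted p up to 0.0638.

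Among the other secreted antagonists and modulators, Fst, which encodes the activin and BMP antagonist follistatin, was higher at 3 days. It had 59.0, 63.5 and 72.9 FPKM in LncCPR-KO libraries and 30.7, 44.7 and 26.6 FPKM in control libraries at day 5 (log2 fold change 0.95, SE 0.17, limma adjusted p = 0.00659). At day 8 it averaged 13.7 ± 2.94 FPKM in LncCPR-KO and 5.66 ± 1.31 FPKM in control embryoid bodies (1.14, adjusted p = 0.0128), and at day 10 11.2 ± 2.55 FPKM in LncCPR-KO and 4.02 ± 0.612 FPKM in control embryoid bodies (1.26, adjusted p = 0.000375). Cer1, a secreted antagonist of Nodal and BMP made in the anterior endoderm of the mouse embryo, averaged 117 ± 4.53 FPKM in LncCPR-KO and 81.7 ± 14.5 FPKM in control embryoid bodies at day 5 (0.52, adjusted p = 0.0374). At day 10 it averaged 4.34 ± 0.166 FPKM in LncCPR-KO and 1.14 ± 0.337 FPKM in control embryoid bodies (1.33, adjusted p = 0.000287). The day 5 call of Cer1 held only without control replicate 3, with adjusted p up to 0.108. Bmper, which encodes an extracellular BMP modulator, was lower at day 5, at 0.940 ± 0.0562 FPKM in LncCPR-KO and 4.98 ± 0.828 FPKM in control embryoid bodies (-1.61, adjusted p = 4.56e-05). Smad1 and Nog, the gene of the antagonist noggin, were also called higher at day 10. Smad1 averaged 16.0 ± 0.558 FPKM in LncCPR-KO and 11.7 ± 0.989 FPKM in control embryoid bodies (0.42, adjusted p = 0.0407), and Nog averaged 7.14 ± 1.68 FPKM in LncCPR-KO and 3.87 ± 1.58 FPKM in control embryoid bodies (0.77, adjusted p = 0.0266). Both calls were lost with the libraries rescaled (adjusted p = 0.0615 for Smad1 and 0.0627 for Nog). That of Smad1 was also lost without control replicate 1 or any 1 LncCPR-KO library (adjusted p up to 0.133), and that of Nog without control replicate 3 (adjusted p = 0.129) or LncCPR-KO replicate 1 (adjusted p = 0.0877).

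Of 8 further targets, Hand1, a helix-loop-helix factor of lateral mesoderm and early heart, was lower at day 5 with 0.664, 0.262 and 0.380 FPKM in LncCPR-KO libraries and 10.3, 9.05 and 10.0 FPKM in control libraries (log2 fold change -2.92, SE 0.14, limma adjusted p = 1.04e-06). It was lower at day 8, at 11.2 ± 4.23 FPKM in LncCPR-KO and 40.2 ± 8.92 FPKM in control embryoid bodies (-1.80, adjusted p = 0.00501), and higher at day 12, at 40.7 ± 2.84 FPKM in LncCPR-KO and 22.1 ± 2.95 FPKM in control embryoid bodies (0.86, adjusted p = 0.00481). Bmp5 had fold changes of the same signs on those days, that of day 12 short of the threshold. Tbx2, a T-box repressor, was lower at day 8, at 0.791 ± 0.225 FPKM in LncCPR-KO and 3.40 ± 0.504 FPKM in control embryoid bodies (-1.30, adjusted p = 0.00476), and at day 10, at 1.69 ± 0.295 FPKM in LncCPR-KO and 4.61 ± 0.576 FPKM in control embryoid bodies (-1.06, adjusted p = 0.00118). In the roles with no call at day 10, 1 of 9 ligands and 1 of 3 chordin-cleaving proteases passed the filter. These were the ligand Bmp6, with a fold change of 0.09, and Bmp1, the protease that cleaves chordin, with -0.06.

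**Figure D3:**
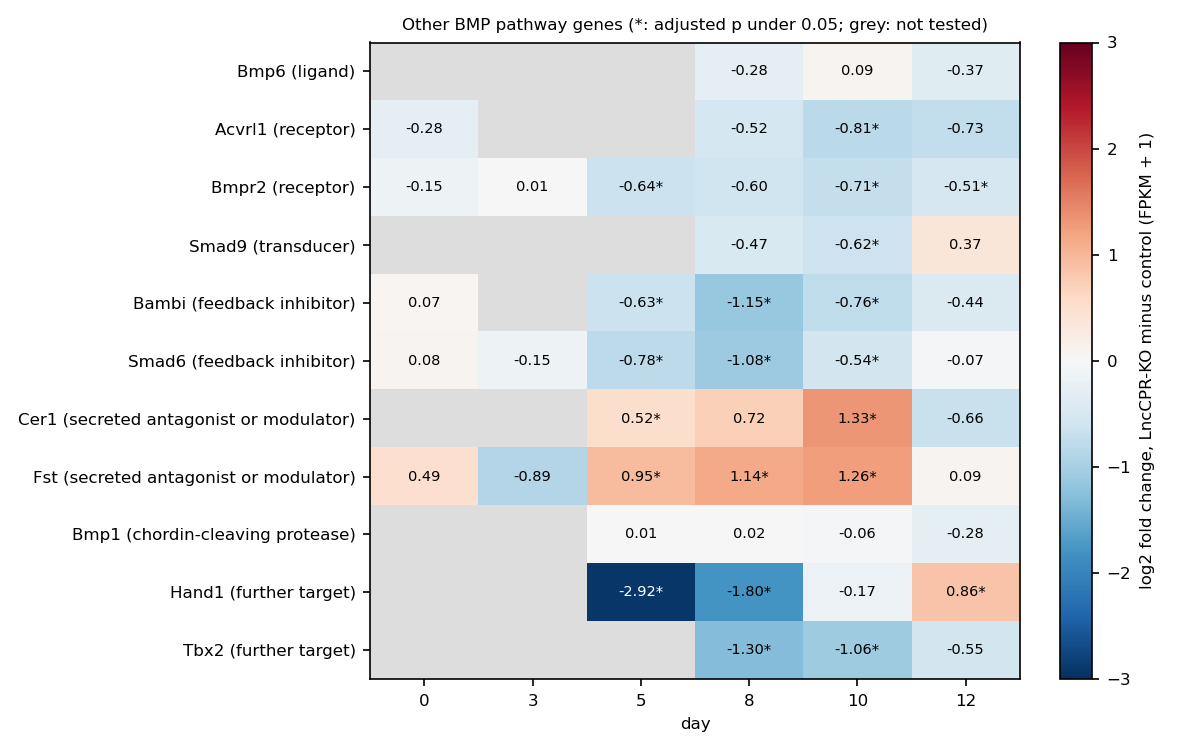
Log2 fold change of LncCPR-KO over control on FPKM + 1 at each day for genes of the wider BMP list, a line of cells for each gene, grey where the gene was below the filter and with an asterisk where the adjusted p is below 0.05. The genes shown were called at 3 or more days or had the largest fold change of their role at day 10. Smad1, Smad5, Bmper and Nog, also named in the text, are not shown. Hand1 runs between -2.92 at day 5 and 0.86 at day 12, Bmpr2, Smad6 and Bambi are below 0 at days 5, 8 and 10, and Fst is above 0 on those days.

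Across the 12 group means, on the log2(FPKM + 1) scale, the highest Pearson r between members was that of Bmp2 with Id3 (0.985), followed by Bmp5 with Msx2 (0.977), and the lowest was that of Bmp4 with Chrd (-0.458). These values describe 12 points that share libraries and days and stand without a test. Among 10559 genes with a group mean of 5 FPKM or more, the 3 most like Bmp5 were Hand1 (0.996), Prdm6 (0.994) and Wnt5a (0.992). Those most like Msx2 were Hdac7 (0.990), Zbtb16 (0.989) and Cnksr2 (0.988), and those most like Bmp4 were Zeb1 (0.986), Ypel2 (0.979) and Vegfa (0.973). For Chrd, with its single day of high level, they were Nme5 (0.990), Intu (0.961) and Tasp1 (0.960). For Msx1 the highest r was 0.963 (Mogat2), for Bmp7 0.978 (Nfkb2), for Id1 0.980 (Zc3hav1l) and for Id2 0.983 (F3).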

How the data were processed

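Total RNA from undifferentiated cells and whole embryoid bodies was depleted of ribosomal RNA and made into libraries with a total-RNA kit, per the labels' protocols. The deposited values are FPKM made by the authors, in 6 tables of 1 day each. TopHat, Cufflinks and the mouse build mm9 are named in the submitters' processing notes, and versions, settings, annotation and use of strand are not given in the sources used here. Whether the tables were scaled together is not stated, so levels across days are described and not tested. FPKM keeps no read counts, so absolute depth is unknown and no counting interval is given. Relative depth was read from the smallest steps of low genes.

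Values were put on the log2(FPKM + 1) scale and tested within each day with limma 3.58.1 in R 4.3.3 (lmFit, eBayes with a variance trend) over genes averaging at least 1 FPKM on the day, with Benjamini-Hochberg adjustment and a threshold of 0.05. An F test of the 5 day-by-line terms over all 36 libraries tested the difference between days. The fits were tested on simulated data. Python 3.11.15, pandas 2.3.3, numpy 2.4.6 and matplotlib 3.10.9 were used for tables and plots. The members and lists were chosen with earlier results of these data known. Named are all 10 members and, from the wider list, genes called at 3 or more days or with the largest fold change of their role at day 10. Smad1, Smad5, Bmper, Nog and Thpo fall outside that rule and were chosen after their values were seen. Genes like a member were the 3 with the highest r. Promoters came from a RefSeq table of GRCm38.p6 that matched 7 of the 10 members, not Bmp2, Bmp7 or Id1. The tables carry no positions, and overlaps between genes were read from the GRCm38 annotation. Sox1 and Tfap2c of the marker lists were not analysed here. Alternatives were another pseudocount, no filter, rescaled libraries, no variance trend, a replicate block and each library left out, and, chosen after seeing the data, leaving out the 8 libraries with over 20% of FPKM in 10 genes.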

Additional observations from a re-analysis of the deposited data

Results flagged for a closer look

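The difference between LncCPR-KO and control changed between days, by the limma F test over all 36 libraries with Benjamini-Hochberg adjustment, for 8 of the 10 members, where 17.1% of 13022 genes were called. Adjusted p was 4.09e-12 for Bmp5, 5.78e-09 for Msx1, 4.4e-08 for Msx2, 2.4e-05 for Chrd, 7.51e-05 for Bmp4, 0.00661 for Id2, 0.0167 for Bmp2 and 0.0178 for Bmp7. The calls of Chrd and Bmp2 were lost with a pseudocount of 0.1 (adjusted p = 0.108 and 0.474), and those of Bmp2, Bmp7 and Id2 without some of the libraries, as given above. Chrd passed the filter of this test only through day 5, so its call restates its day 5 difference. For Msx1 the fold changes past the threshold had opposite signs, -1.07 and -1.13 at days 5 and 8 and 0.57 and 0.82 at days 10 and 12. With no filter on low values the Msx1 calls of days 8, 10 and 12 were lost (limma adjusted p = 0.0808, 0.0517 and 0.0670). Those of days 10 and 12 were also lost without some of the libraries, as given above. For Msx2 the fold changes past the threshold were -1.44 at day 5 and 0.55 and 0.95 at days 10 and 12. Its day 10 call was lost under several alternatives, as given above. Among the genes of the wider BMP list that were named by the rule given above, that difference changed between days for Hand1 (2.28e-10), Cer1 (2.22e-06), Tbx2 (2.52e-06), Fst (8.13e-06), Bambi (0.000366), Smad6 (0.00144), Bmpr2 (0.00172) and Smad9 (0.00272), the call of Smad9 being lost without control replicate 2 (adjusted p = 0.0714). Of the wider-list genes chosen after their values were seen, Bmper (5.62e-07), Smad1 (0.00105) and Nog (0.0316) were called by the same F test. Smad5 (0.568) was not. Alternatives of the F test were not read for these genes.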

How the results depend on the processing

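The day 5 calls of Bmp4, Bmp5, Chrd, Msx1 and Msx2, the day 8 call of Bmp5, and the day 0 call of Id1 and day 12 call of Msx2 kept direction and threshold under every alternative run, although the alternative without the libraries with over 20% of FPKM in 10 genes left 1 LncCPR-KO library at day 8, assumed to vary like the other group. With no filter on low values, members called were 1, 1, 0 and 1 at days 0, 8, 10 and 12. Genes called were then 774, 2, 424, 136, 775 and 218 at days 0, 3, 5, 8, 10 and 12, and genes of the wider list 0, 4, 1 and 6 at days 0, 5, 8 and 10. With libraries rescaled, 4 members were called at day 10. Genes called were 541 at day 3, 738 at day 8 and 4136 between days, and genes of the wider list 1, 8 and 5 at days 3, 8 and 12. Without the variance trend, 1 member was called at day 10 and 4 genes of the wider list at day 12. Without the libraries with over 20% of FPKM in 10 genes, 1 member was called at day 10, genes called were 843 and 333 at days 5 and 12, and 34 and 1326 at days 3 and 8, where 1 control and 1 LncCPR-KO library remained, and 1 gene of the wider list at day 12. Deviations of same-numbered libraries correlated at r between -0.122 and 0.273, so the replicate numbers were not taken as pairs. With a replicate block, genes called were 824, 342 and 464 at days 0, 3 and 12, 1 member was called at day 0, and genes of the wider list called were 0, 1 and 8 at days 0, 3 and 8. The block also ended the calls between days of Bmp2 (adjusted p = 0.0519) and Bmp7 (adjusted p = 0.066). A pseudocount of 0.1 ended those of Bmp2 and Chrd and no other call that was read under the alternatives.

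With a library left out in turn, genes called ranged over 797 to 1041, 186 to 332, 833 to 996, 190 to 665, 1540 to 2574 and 317 to 583 at the 6 days, and 1249 to 2846 between days. Members called ranged over 1 to 2, 0 to 0, 5 to 5, 2 to 3, 0 to 2 and 1 to 3, and 5 to 8 between days. Genes of the wider list called ranged over 0 to 0, 0 to 1, 6 to 7, 4 to 6, 7 to 9 and 1 to 2. No called value changed sign. Uncalled values that did were, with libraries rescaled, Id3 at day 0 (0.0036), Id1 at day 3 (-0.13) and day 8 (-0.066), Bmp7 at day 10 (-0.13) and Bmp6 at day 10 (-0.013). Without the libraries with over 20% in 10 genes they were Bmp4 (-0.20), Id1 (-0.32) and Id2 (-0.043) at day 3 (1 control library) and Id3 (0.025) at day 8 (1 LncCPR-KO library), and Bmp7 (-0.038) and Bmp6 (-0.058) at day 10. With 1 library left out, values with a change of sign ranged from -0.094 to 0.093 for Id3 at day 0, from -0.012 to 0.29 for Bmp4 and -0.18 to 0.20 for Id1 at day 3, and from -0.12 to 0.034 for Id3 at day 5. At day 8 they ranged from -0.12 to 0.25 for Id1 and -0.28 to 0.018 for Id3, at day 10 from -0.038 to 0.12 for Bmp7, -0.058 to 0.19 for Bmp6 and -0.21 to 0.041 for Bmp1, and at day 12 from -0.0054 to 0.27 for Bmp7. The causes were not tested. Of 676 recomputed values of calls, 565 kept the call and 111 lost it.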
